A study of Mus musculus with 4 samples.

Results

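The genes described here are 9 genes of cardiac muscle measured in whole mouse lung: Nppa, Myh6, Myl7, Myl4, Actc1, Tnnt2, Tnni3, Sln and Ryr2. They were taken by symbol from the deposited expression tables, and all 9 were found among 23284 genes. The genes were chosen from earlier results on these same libraries, where heart muscle genes differed in level between the libraries, so the differences given here are a description and carry no test. The samples were 4 lung RNA libraries of C57BL/6 mice, 1 per group, and a library may be 1 animal or a pool, since the labels do not say. A wild-type and an IL22-/- library came from mice given house dust mite (HDM) allergen to sensitize and then challenge them, with lungs collected 48 h after the final dose. The other 2 libraries came from wild-type mice that received PBS or recombinant IL-22 through the trachea, with lungs collected 24 h later. All 4 groups share the strain, and the labels give no age, no dose and no account of how the lungs were cut from the heart and great vessels.

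Lung is not a muscle organ, but in rodents the pulmonary veins carry a sleeve of true cardiac muscle that runs on from the left atrium into the lung, so that heart genes are found in lung RNA. This muscle contracts by the sliding of myosin thick filaments on actin thin filaments, switched by calcium that the ryanodine receptor releases and the troponin complex senses. It uses the atrial forms of several proteins, among them the atrial myosin light chains Myl7 and Myl4, and Sln, a small inhibitor of the calcium pump. Nppa encodes atrial natriuretic peptide, a hormone that atrial muscle stores and releases when stretched and that lowers blood volume and relaxes vessels.

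The upstream sequences of 3 members are printed first as examples, among them Nppa, which stood apart from the rest in size of difference. Each shows the 140 bases just before the annotated start of transcription, 5′ to 3′ on the gene's own strand, from RefSeq on GRCm38.p6, the assembly called mm10. Capitals mark matches to GATAA (GATA factors), AAGTG (NKX2-5) and CATTCC (TEAD factors) on either strand, to the CArG box of serum response factor, and to TATAAA on the gene's strand only. None of the marked matches overlaps another. The windows are chr4:148000582-148000721 (plus strand) for Nppa, chr11:5898783-5898922 (minus strand) for Myl7 and chr1:135836194-135836333 (plus strand) for Tnnt2, and no annotated exon overlaps them.
Nppa: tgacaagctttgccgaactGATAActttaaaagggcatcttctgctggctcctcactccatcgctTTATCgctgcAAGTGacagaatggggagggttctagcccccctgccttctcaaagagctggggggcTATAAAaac
Myl7: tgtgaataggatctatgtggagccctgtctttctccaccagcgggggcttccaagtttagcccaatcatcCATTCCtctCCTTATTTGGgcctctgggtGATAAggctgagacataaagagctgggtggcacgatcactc
Tnnt2: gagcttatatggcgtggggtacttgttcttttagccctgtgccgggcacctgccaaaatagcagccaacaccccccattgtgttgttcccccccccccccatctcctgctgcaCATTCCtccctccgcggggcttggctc

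Over the 250 bases before the start, which reach beyond the printed windows, 9 annotated starts of 8 members were searched in the RefSeq promoter table. Sln was not matched. The CArG box was found at the starts of Actc1 and Myl7, 47 and 61 bases upstream, and in 1.47% of all 32851 promoters of that length. GATAA was found in Nppa, Myl7 and Tnnt2, against 22.6% of all promoters, and AAGTG in Nppa, Myl7, Myl4 and Myh6, against 40.7%. CATTCC was found in Myl7, Tnnt2 and Myh6, against 12.6% of all promoters, and TATAAA only in Nppa, against 7.59%. The motif of the MEF2 factors was found in none of the 9 and in 2.92% of all promoters. The starts of Ryr2 and Tnni3, and the Tnnt2 start that is not printed, held no match to any of these motifs. The 3 members printed are those with a GATAA match and do not stand for the whole set. A match is a stretch of letters and not a measured binding site.

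Levels are FPKM, fragment counts scaled to transcript length and sequencing depth, so levels of different genes can be set side by side within a library. Each difference is log2(FPKM + 1) in the knockout minus wild type, or in IL-22 minus PBS. The words higher and lower as calls mean a difference of 1 or more in size in a gene averaging 1 FPKM or more over both libraries of its table. From the whole-read steps of low values the libraries had an estimated 19.9 to 28.7 M reads (M for 1000000). With 1 library per group no difference has a replicate check, intervals on reads cover counting error only, and they compare libraries, not conditions. In whole-tissue RNA, fewer muscle cells and less RNA per muscle cell cannot be told apart.

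All 9 genes were expressed in all 4 libraries, and all 9 had their lowest level in the knockout HDM library. Of the 8 members that passed the filter on low values in the HDM libraries, all 8 were lower in the knockout than in wild type, with a median difference of -1.42 and a range from -2.69 to -1.12. Of all genes measured there, 2.42% were called lower, and the median difference was 0.03. Ryr2 did not pass that filter, at a mean of 0.368 FPKM. With IL-22 all 9 members lay above their PBS level, with a median difference of 0.39, but only Nppa was called higher, and 0.597% of all measured genes were. The members were chosen with both sets of differences known, so nothing is read from these shares.

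**Figure D1:**
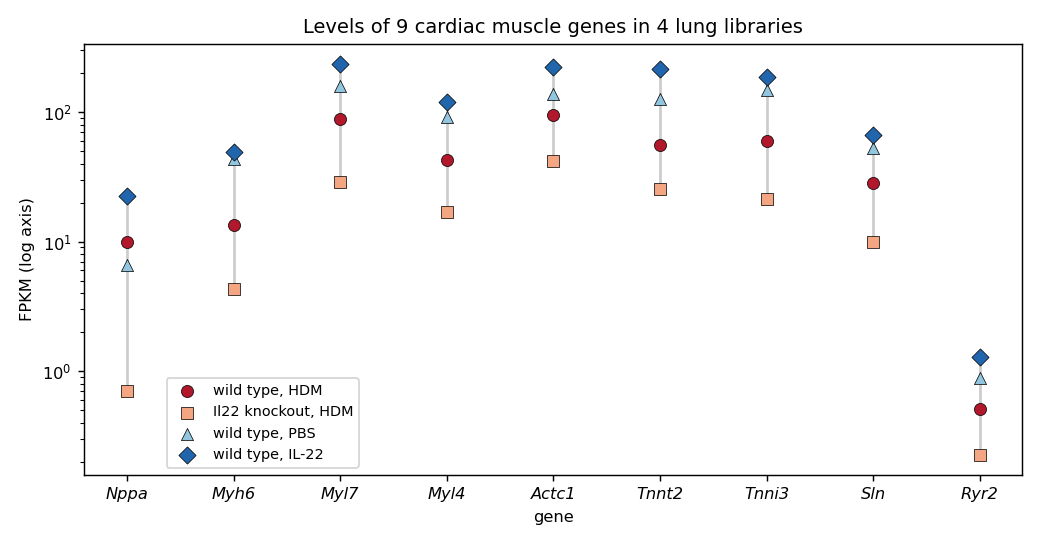
FPKM (log axis) of the 9 genes in the 4 libraries, 1 point per library, with a grey line from the lowest to the highest. The square of the knockout HDM library is the lowest point of every gene and the diamond of the IL-22 library the highest.

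Nppa (chr4:148000722-148002079) differed most of the 9 in both tables. The wild-type HDM library had 9.97 FPKM and the knockout 0.701, a difference of -2.69 or 14.2-fold. The knockout value rests on about 13 reads (95% Poisson interval 6.92 to 22.2) against about 165 in wild type. Per read of depth the knockout level was 0.0721 of the wild-type level, with an exact binomial 95% interval of 0.0376 to 0.127. It was thus the member with the largest gap between the HDM libraries. The knockout to wild-type ratios of the other 8 ran from 0.315 to 0.451. Nppa was at 6.54 FPKM with PBS and 22.5 with IL-22, a difference of 1.64 or 3.44-fold, with an interval of 2.72 to 4.37. The other 8 members were 1.13-fold to 1.71-fold above PBS with IL-22.

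Among the thick filament genes, Myl7 (chr11:5896637-5898782), the regulatory light chain of atrial myosin, was the most abundant. After HDM it had 88.1 FPKM in wild type and 28.9 with the knockout, a difference of -1.58. With PBS it was at 159 and with IL-22 at 237, a difference of 0.58. Myl4 (chr11:104550663-104595753), the essential light chain of atrial myosin, was at 42.5 and 17.0 FPKM in the wild-type and knockout HDM libraries, a difference of -1.27. It was at 91.7 with PBS and 120 with IL-22, a difference of 0.39. Both light chains thus had the same order of libraries, with IL-22 highest, then PBS, wild-type HDM and knockout HDM.

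Myh6 (chr14:54941921-54966927), the alpha heavy chain that is the main cardiac myosin of adult mice, had 13.5 FPKM in wild type and 4.27 with the knockout after HDM. This difference of -1.47 was 3.17-fold, the largest fold after Nppa. Its IL-22 difference was the smallest of the 9, at 0.18, with 43.7 FPKM under PBS and 49.5 under IL-22. Its neighbour Myh7, the beta heavy chain, did not share the HDM difference, at 3.70 and 3.43 FPKM, so Myh7 stood at 27.3% of Myh6 in the wild-type and 80.5% in the knockout HDM library. Myh7 was at 25.8% of Myh6 with PBS and 21.4% with IL-22. The sequences of these genes are close enough for reads to be shared between them.

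Of the thin filament genes, Actc1 (chr2:114047282-114053548), cardiac alpha-actin, had 94.2 FPKM in wild type and 42.2 with the knockout after HDM, a difference of -1.14. It was at 139 with PBS and 224 with IL-22, a difference of 0.69. Tnnt2 (chr1:135836354-135852260), the troponin subunit that ties the complex to tropomyosin, was at 56.0 and 25.3 FPKM after HDM, a difference of -1.12. These 2 genes had the smallest HDM differences of the 8 members measured and, after Nppa, the largest IL-22 differences, since Tnnt2 was at 125 with PBS and 214 with IL-22 (0.77). Tnnt2 lay nearest to the size rule from inside in the HDM table, and from outside in the IL-22 table. Tnni3 (chr7:4518305-4524229), the inhibitory troponin subunit of the heart, was at 59.3 and 21.4 FPKM in the wild-type and knockout HDM libraries, a difference of -1.43. It was at 149 with PBS and 186 with IL-22, a difference of 0.32. Actc1 has near-identical relatives in the smooth muscle actin Acta2 and the skeletal actin Acta1, and reads can be shared between them. The actins did not keep a fixed ratio, since Actc1 was at 33.0% of Acta2 in wild type and 24.9% with the knockout after HDM, 66.3% with PBS and 50.4% with IL-22.

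The calcium handling members were Sln and Ryr2. Sln (chr9:53850164-53854560), sarcolipin, had 28.3 FPKM in wild type and 9.94 with the knockout after HDM, a difference of -1.42. It was at 52.4 with PBS and 67.0 with IL-22, a difference of 0.35. Ryr2 (chr13:11553102-12106945), the calcium release channel of the cardiac sarcoplasmic reticulum, was the least abundant member on the FPKM scale, at 0.512 and 0.224 in the wild-type and knockout HDM libraries and 0.877 and 1.28 with PBS and IL-22. Because its transcript is long, these values rest on about 211, 101, 290 and 610 reads. The difference of -0.30 on the log2(FPKM + 1) scale understates the HDM gap, which per read of depth was a ratio of 0.438 (0.342 to 0.558). With IL-22 the ratio to PBS was 1.46 (1.27 to 1.68).

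Setting each gene against Myl7 of the same library removes any scaling between libraries. The members were chosen for their differences in these same libraries, so ratios that vary little can follow from that choice and are only described. Sln stood at 28.3% to 34.4% of Myl7 and Myl4 at 48.2% to 58.9%, so these members varied by 1.22-fold across the 4 libraries. Ryr2, Tnnt2 and Tnni3 varied by 1.44-fold, 1.42-fold and 1.39-fold, Actc1 by 1.67-fold and Myh6 by 1.86-fold. Nppa varied by 4.65-fold. It stood at 11.3% of Myl7 in wild type after HDM and 9.51% with IL-22, but at 2.43% with the knockout and 4.13% with PBS.

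**Figure D2:**
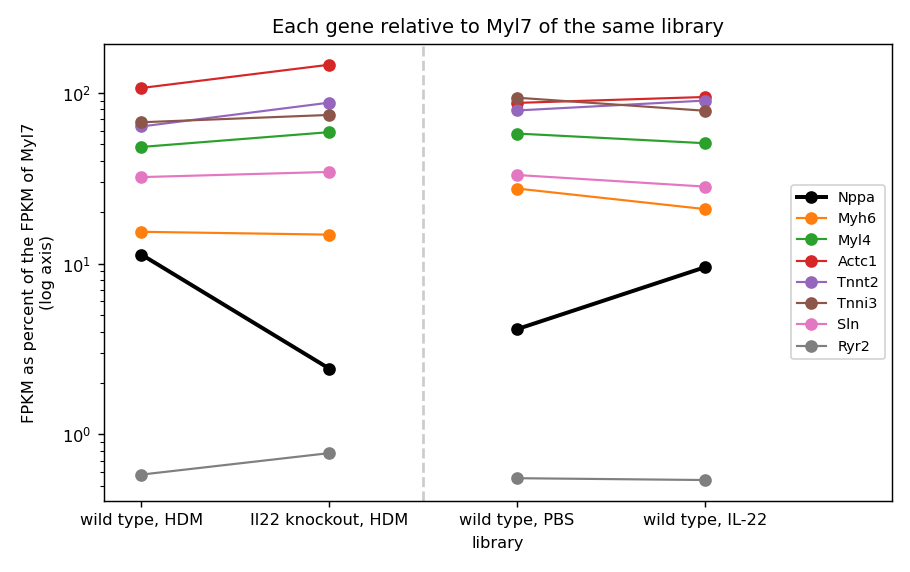
FPKM of 8 genes as a percent of the FPKM of Myl7 in the same library (log axis), with lines joining the libraries of the same table. The line of Nppa in black goes from 11.3% down to 2.43% in the HDM table and from 4.13% up to 9.51% in the PBS and IL-22 table, while the other lines are flatter.

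Any scaling between the tables is not known, and the order of levels across them is given as a description of the deposited values only. For 8 of the 9 members the order from high to low was IL-22, PBS, wild-type HDM and knockout HDM, and for Nppa it was IL-22, wild-type HDM, PBS and knockout HDM. No spread between animals was measured, so no neighbours in these orders can be said to differ between conditions. Summed over the 9 genes the level was 1122 FPKM with IL-22, 766 with PBS, 393 in wild type after HDM and 150 with the knockout. The median ratio of PBS to wild-type HDM over 13269 genes was 1.02.

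Beyond the members, 78 further genes of cardiac muscle were looked up, grouped by role and not by how they moved. After HDM 50 of these were measured, of which 5 were lower in the knockout, none was higher and 33 lay below 0, with a median of -0.26. Over all genes measured 2.42% were called lower and 46.1% lay below 0. With IL-22 55 were measured, none was called in either direction and 40 lay above 0, with a median of 0.25. Of all measured genes 0.597% were called higher and 58.6% lay above 0. These medians were smaller in size than those of the members measured, which had been picked for their differences, but single genes overlapped with the members in both tables. Listed genes under the filter are left out of these medians. Among them Mybpc3 and Hrc had knockout to wild-type ratios of 0.346 and 0.340 after HDM, but Gata4 had 0.888 and Kcna5 3.15. The added 1 also shrinks the differences of listed genes at a few FPKM. Others, such as S100a1 at 566 and Tpm1 at 345 FPKM in the wild-type HDM library, stood above Myl7 at 88.1. How much of the RNA of the 78 genes came from cardiac muscle was not tested.

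The 5 lower genes belong to 5 of the role groups. Mybphl, a myosin-binding protein of the atria, had 3.80 FPKM in wild type and 0.988 with the knockout, and a difference of 0.19 with IL-22. Tnnc1, the calcium-binding troponin subunit that completes the complex of Tnnt2 and Tnni3, was at 15.3 and 6.95 after HDM and at 34.5 and 53.9 with PBS and IL-22. Csrp3, a Z disc protein, was at 5.82 and 2.27 after HDM, and Cox7a1, a muscle subunit of cytochrome oxidase, at 24.8 and 11.5. Corin, the protease of heart muscle cells that cuts the precursor of the Nppa hormone into its active form, was at 2.14 FPKM in the wild-type and 0.405 in the knockout HDM library. That is about 242 against 50 reads, a ratio of 0.189 (0.137 to 0.257). With PBS and IL-22 Corin was at 0.521 and 0.790 FPKM. Its highest level was thus in wild-type HDM, whereas that of the members was with IL-22.

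Other contractile and Z disc genes past the filter differed by less than 1 on the log2(FPKM + 1) scale. In genes at a few FPKM the added 1 shrinks the difference. Myl3, a ventricular and slow muscle light chain, had a difference of -0.99 after HDM and 0.66 with IL-22, and Actn2, the alpha-actinin of the Z disc, -0.87 and 0.52. Their knockout to wild-type ratios after HDM were 0.324 and 0.384, within the 0.315 to 0.451 of the members other than Nppa. The ratio of Tcap, another Z disc gene, was 0.758. Myoz2 was at 4.71 against 2.19 FPKM after HDM and 19.8 with IL-22 against 12.1 with PBS, and Mb, the oxygen store of muscle, at 25.8 against 13.1 and 131 against 78.4. Some listed genes did not share the pattern, and how much of their RNA came from cardiac muscle was not tested. Cox6a2 and Cox8b, muscle subunits of cytochrome oxidase, differed by 0.14 and 0.11 after HDM. Cryab, a small heat shock protein, differed by 0.20, at 200 FPKM in wild type, above Myl7 at 88.1. Tmod1, which caps thin filaments, had the largest difference above 0 after HDM among the 50 measured, at 0.52, with 9.52 FPKM in wild type. Among ion channels and gap junctions Gja1, which couples muscle cells, had 58.3 against 31.8 FPKM after HDM, while the atrial gap junction gene Gja5 had 10.4 and 9.79. Of the 9 measured metabolic genes 7 lay below 0 and of the 8 measured Z disc genes 6 did, while the 5 measured transcription factors lay above 0 in 4 cases. Over all genes measured after HDM 46.1% lay below 0 and 53.9% above 0.

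After HDM none of the 10 further calcium handling genes measured was called, where 2.42% of all measured genes were called lower. All 10 had smaller differences than Sln, which was among the members chosen for their differences. Hrc, on the same list, did not pass the filter, at 1.26 and 0.426 FPKM in the wild-type and knockout HDM libraries. Its knockout to wild-type ratio was 0.340, and that of Sln 0.351. With IL-22 none of 11 was called, where 0.597% of all measured genes were called higher, and some, such as Casq2, had larger differences than Sln. The calcium pump Atp2a2, which Sln inhibits, was at 59.5 against 37.1 FPKM in the HDM libraries and 53.7 against 71.6 with PBS and IL-22. Pln, the other small inhibitor of that pump, was at 3.10 and 1.65 after HDM and stood at 8.24% to 16.6% of Sln. Casq2, the calcium store protein, had differences of -0.46 and 0.74. Nkx2-5, an early heart transcription factor, was near the limit of detection. It had about 6 reads in wild type and 1 with the knockout after HDM, a ratio of 0.152 (0.00332 to 1.26), and a difference could not be detected at this depth. It had 5 reads with PBS and 17 with IL-22, a ratio of 2.36 (0.834 to 8.17).

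Genes of other heart regions were compared to check what kind of cardiac muscle the RNA held. Myl2, the regulatory light chain of the ventricle and the counterpart of Myl7, was listed at 0 in the wild-type HDM and PBS libraries and at 0.340 and 0.322 FPKM in the knockout HDM and IL-22 libraries, about 4 reads each. It was thus at most 1.18% of Myl7 in any library. Irx4, a ventricular transcription factor, was listed at 0 in all 4 libraries, and so was Bmp10, a growth factor gene of the right atrium in adults. Nppb, the gene of the related natriuretic peptide, had 2 reads in wild type after HDM, 1 with IL-22 and none otherwise. The 5 ventricular markers summed to 6.7 to 23.2 FPKM, mostly from Myh7 and Myl3, which slow skeletal muscle also uses. Hey2, also on this list, was above 0 in all 4 libraries. It was at 1.66 FPKM in the wild-type and 2.05 in the knockout HDM library, where Myl3 was at 0.894. The differences of Hey2 were 0.20 after HDM and 0.27 with IL-22. How much of the Hey2 RNA came from cardiac muscle was not tested. The atrial light chains Myl7 and Myl4 were thus present in every library while Myl2 was at or near 0. Muscle of the pulmonary veins and of the atrium cannot be told apart by these genes.

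Markers of other tissues that could adhere to a lung were read in the same way. Of all genes measured 2.42% were lower in the knockout after HDM and 0.597% higher with IL-22. Fat cell markers lay mostly on the members' side. After HDM 4 of 6 measured were lower in the knockout (median -1.20), but Cidec lay above 0, at 6.61 and 6.87 FPKM in wild type and knockout. With IL-22 6 of 7 were higher (median 1.25), against 1 of 9 members (median 0.39). The fat hormone gene Adipoq was at 4.66 against 1.53 FPKM after HDM and 20.0 with IL-22 against 6.65 with PBS. The 9 fat markers summed to 156 FPKM in wild type and 64.3 with the knockout after HDM, and to 243 with PBS and 571 with IL-22. Lep was at 0 in both HDM libraries, and Ucp1 was at 0 in the knockout HDM, PBS and IL-22 libraries. Smooth muscle markers lay on the same side as the members in all 10 genes of both tables, with medians of -0.38 and 0.78, 1 lower in the knockout and 3 higher with IL-22, and sums of 781 and 548 FPKM after HDM, 643 with PBS and 1188 with IL-22. Acta2 was at 286 against 169 after HDM and at 209 under PBS and 445 under IL-22. The part of dissection, and of the fat and smooth muscle in each sample, in the differences of the 9 genes was not tested.

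Of the skeletal muscle markers measured, 3 of 4 lay below 0 after HDM, against 46.1% of all genes. With IL-22 5 of 6 lay above 0, against 58.6% of all genes. Mylpf lay above 0 after HDM, at 1.23 FPKM in wild type and 2.58 with the knockout, a difference of 0.68. No shared direction is read from so few genes. Of the 13 listed, none was at 0 in any library, the medians were -0.20 and 0.34, and the sums ran from 12.1 to 29.4 FPKM. The part of skeletal muscle in the differences was not tested. Only Tnnt3, fast skeletal troponin T, was called, at 2.84 FPKM under PBS and 11.4 under IL-22, and the fast myosin genes Myh1, Myh2 and Myh4 did not pass 0.227 FPKM. Acta1 was at 5.53 and 2.84 FPKM after HDM and at 3.67 and 3.59 with PBS and IL-22. Cartilage markers (7 of 8 in the tables) and the 6 oesophagus markers were all under 1 FPKM in each library and summed to at most 0.64 FPKM. Mesothelial markers, of the lining of the lung surface, had medians of -0.11 and 0.11 with no call among 6, and endothelial markers 0.21 and -0.03 with none among 8. Alveolar type II markers had medians of -0.13 and -0.04 with no call among 8. Thymocyte markers had only Cd8b1 above the filter, at 4.08 and 4.16 FPKM after HDM and at 7.08 and 5.48 with PBS and IL-22.

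**Figure D3:**
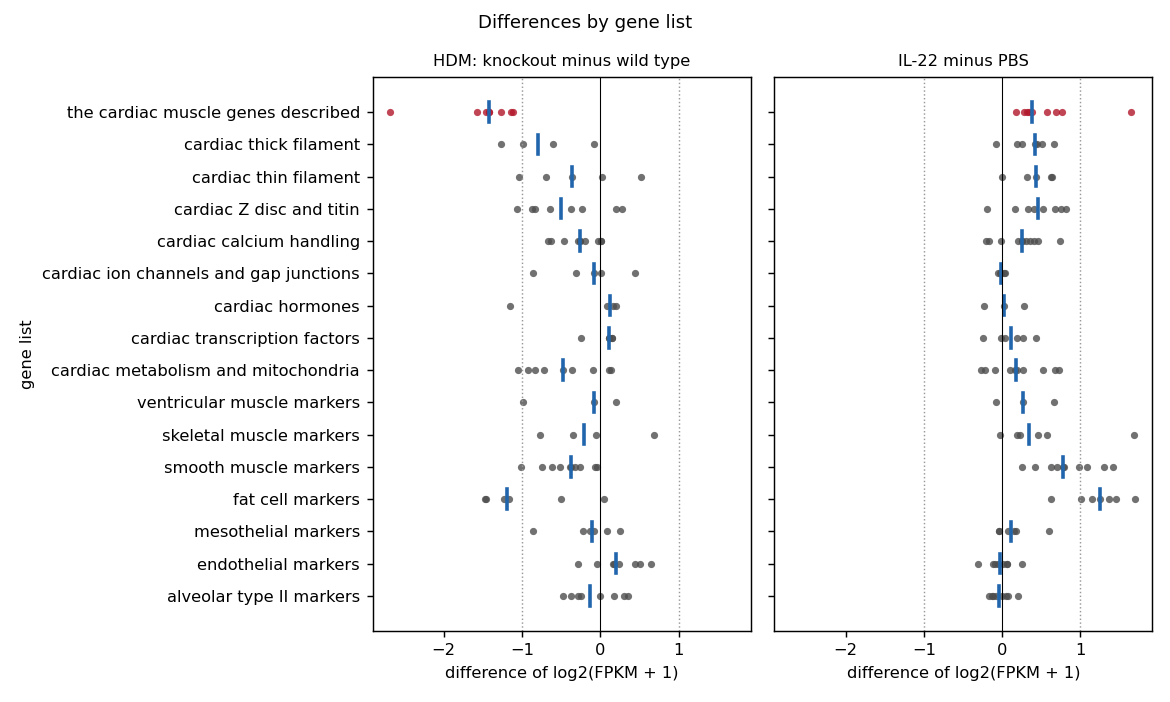
Differences of log2(FPKM + 1) by gene list in the HDM libraries (left, knockout minus wild type) and with IL-22 against PBS (right), 1 point per gene past the filter, with the list's median as a blue line and the size rule as dotted lines. The members past the filter, in red, 8 on the left (without Ryr2) and 9 on the right, have medians of -1.42 and 0.39. The fat cell markers have -1.20 and 1.25.

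The genes whose 2 differences were most like those of the members were sought among 12857 genes. The measure was the distance between their pair of differences and the pair of member medians (-1.42 and 0.39), which leaves out the order of levels across the tables. The 10 nearest genes lay at distances of 0.0494 to 0.156 in log2 units. All 10 had their highest level in the wild-type HDM library, whereas the members had theirs with IL-22. The 10 genes included Cd177, 2810417H13Rik, Fcgr1, Clec10a, Fcer2a, Cfp, Wfdc13, Ms4a4c and Ccl20, and none of them is on a muscle list. Cd177, a surface protein of neutrophils, was at 4.94 and 1.29 FPKM after HDM and at 2.66 and 3.76 with PBS and IL-22. Of the members themselves Sln lay at 0.0398 and Tnni3 at 0.0640, Actc1 and Tnnt2 at 0.415 and 0.488, and Nppa at 1.78.

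**Figure D4:**
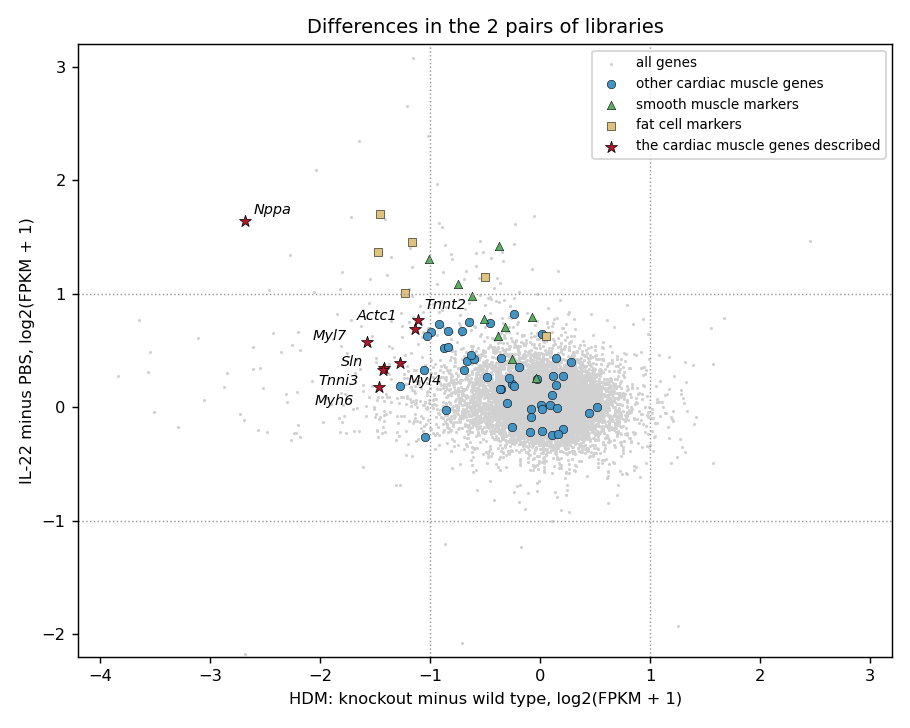
Difference in the HDM libraries (x axis, knockout minus wild type) against difference with IL-22 (y axis, IL-22 minus PBS), both of log2(FPKM + 1), for 12902 genes past the filter in both tables, of which 23 lie outside the axes. The stars are the 8 members past the filter in both, with Nppa at -2.69 and 1.64 and the other 7 between -1.58 and -1.12 on the x axis. Circles are other cardiac muscle genes, triangles smooth muscle markers and squares fat cell markers, and dotted lines mark the size rule.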

How the data were processed

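Both tables hold FPKM values as the authors deposited them, the HDM libraries in one and the PBS and IL-22 libraries in the other. Cufflinks 2.2.1, TopHat2, CASAVA 1.8.2 and the build mm10 appear in the submitters' processing notes. Settings and scaling: not given in the sources used here. The tables (23746 rows each) were joined on symbol and accession, 25 symbols turned into dates were restored, and rows of a symbol were added together. Differences are of log2(FPKM + 1), over genes averaging 1 FPKM or more, called at 1 in size, with no p-value. Depth came from the steps of low values and GENCODE M21 lengths less 200 bases. Of 6304 low values 66.0% lay within 0.1 of a whole read, where 20% would by chance, so reads are approximate, and those of long or spliced genes depend on the length used.

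The members and lists were chosen with earlier results of these data known. The rule for named genes took all members, up to 4 genes per list with the largest differences past the filter, Myl2, Myh7, Acta1, Acta2 and Nppb, and the 10 nearest patterns. Some genes under this rule are not reported here. Any other gene named is an example chosen after its values were seen. Gene positions are from GENCODE M21 on GRCm38. Only the step that takes differences was tested on simulated data, with planted differences beyond the size rule. The depth estimate, the intervals, the motif search and the search for nearest patterns were not tested in this way. Alternatives were 2 scalings, a pseudocount of 0.1, a filter at 5 FPKM or none, and a size rule of 1.5. Software was matplotlib 3.10.9, scipy 1.17.1, pandas 2.3.3 and numpy 2.4.6 under Python 3.11.15.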

Additional observations from a re-analysis of the deposited data

How the results depend on the processing

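With 1 library per group no replicate can be left out and no paired analysis was possible. The 8 members lower after HDM and the 1 member higher with IL-22 kept these counts under both scalings, a pseudocount of 0.1, no filter and a filter at 5 FPKM. A size rule of 1.5 left 2 of the 8 lower (Nppa and Myl7), and the median of -1.42 is then short of the rule. The median after HDM ran from -1.48 to -1.40 and that with IL-22 from 0.35 to 0.50 over the alternatives. Of the further cardiac genes 5 were lower after HDM, against 11 with a pseudocount of 0.1, 2 with a filter at 5 FPKM, which leaves 28 of 50 genes, 0 with a size rule of 1.5, and 6 under median-ratio scaling. The share of all genes lower after HDM was 2.42%, against 3.67% with a pseudocount of 0.1 and 2.13% with a filter at 5 FPKM. It was 0.948% with a size rule of 1.5 and 2.51% under median-ratio scaling. None of the further cardiac genes was higher with IL-22 under any of the 6 alternatives. No scaling moved the median of all genes by over 0.1. Depth limits Nppa in the knockout (about 13 reads) and Nkx2-5, Nppb and Myl2, with at most 17 reads in any library.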

Other observations

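Nppa was the only member both lower in the knockout HDM library and higher with IL-22 by the size rule. In all 29 genes were, 9.01% of the 322 genes lower after HDM and 36.7% of the 79 genes higher with IL-22, and 8 of the 29 were small or ribosomal RNAs. The examples that follow were chosen after their values were seen. Besides Nppa these 29 included the fat genes Adipoq, Car3, Cfd and Fabp4, the smooth muscle actin Actg2 (41.7 against 20.1 FPKM after HDM and 53.5 against 21.1 with IL-22), and the macrophage genes C1qb and Aif1. The 2 tables share no library.

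Receptors of the Nppa hormone did not differ by the size rule in either table. Npr1, the signalling receptor, was at 26.2 and 29.5 FPKM in the wild-type and knockout HDM libraries and at 36.9 and 31.2 with PBS and IL-22. Npr3, the clearance receptor, was at 27.1 and 31.3 after HDM and at 8.07 and 9.98 with PBS and IL-22. The differences after HDM and with IL-22 were 0.16 and -0.24 for Npr1 and 0.20 and 0.28 for Npr3.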
